A study of Mus musculus with 6 samples.

Results

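Cytosolic ribosomal protein genes were taken as the genes whose name is Rpl or Rps followed by a number and at most a short suffix, together with *Rplp0*, *Rplp1*, *Rplp2* and *Rpsa*, with pseudogenes named -ps left out. This gave 78 of the 48734 named genes, 44 of the large subunit and 34 of the small subunit by name. Of the 78, 68 encode canonical proteins of the cytosolic ribosome (39 large and 29 small), and 10 are paralogs or retrogene copies, of which RefSeq lists 4 (*Rps12l1*, *Rps3a2*, *Rps3a3* and *Rps4l*) as pseudogenes. Of the 79 canonical proteins listed, 9 have no feature of their name in the tables, and *Fau*, made as a fusion to a ubiquitin-like protein, has a name outside the rule and a mean of 278 FPKM. Throughout, the values are FPKM, fragments scaled to transcript length and to the aligned reads of the library, so levels can be compared between genes per length.

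RNA was sequenced from femur cortical bone with the marrow removed, and from osteoblasts grown from bone marrow, of mice of the inbred strain CC016/GeniUnc, and the labels name no allele or agent beyond the culture medium. The osteoblasts were marrow stromal cells that had been kept for 8 days in a medium holding dexamethasone, beta-glycerophosphate and ascorbic acid. Each label has 3 libraries. The study's methods give 3 mice, whose femora gave the bone and whose marrow gave the osteoblasts, and neither they nor the labels tie a replicate number to 1 mouse.

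The ribosome makes every protein of the cell, and each canonical ribosomal protein is present in it in 1 copy, apart from the acidic stalk proteins. Their mRNAs are abundant, share a pyrimidine run at the 5′ end (the TOP motif) through which their translation is controlled by mTOR, and are known to be copied back into the genome as processed pseudogenes. In bone, matrix production by osteoblasts depends on high protein synthesis, and mutations in ribosomal protein genes cause Diamond-Blackfan anemia, a failure of red cell production in the marrow.

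The run was looked for at the annotated start sites of the genes. RefSeq promoter windows (GRCm38.p6) were at hand for 57 of the 78 genes. A C followed by at least 4 further C or T, beginning within 5 bases of an annotated start on the coding strand, was found in 26 of the 57 (45.6%) and in 21.2% of the 27025 genes of that table. In 12 (21.1%) against 3.01% of all genes the annotated start was itself such a C, whether or not more pyrimidines came before it, and a stretch of at least 7 bases was found near the start in 22 (38.6%) against 7.64%. Proteins of the mitochondrial ribosome had such a C near the start in 17 of 69 genes (24.6%) and at the start in 0. The windows printed here hold 15 bases before the annotated start and 15 from it on, and capitals mark the longest stretch of C and T that begins at a C within 5 bases of the start, up to the end of the window, so pyrimidines farther before the start stay in lower case. The 3 with the longest stretch counted in this way are shown first, then *Rpl14*, whose level varied most among the canonical genes, then 2 pairs of a canonical gene and its paralog and the muscle paralog *Rpl3l*.
Rpl27a (chr7:109519180-109519209, plus strand): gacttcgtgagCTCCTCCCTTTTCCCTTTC
Rpl15 (chr14:18270972-18271001, minus strand): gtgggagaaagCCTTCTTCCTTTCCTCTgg
Rpl35 (chr2:39005117-39005146, minus strand): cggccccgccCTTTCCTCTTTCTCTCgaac
Rpl14 (chr9:120571502-120571531, plus strand): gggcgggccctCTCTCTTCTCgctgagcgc
Rps27 (chr3:90213634-90213663, minus strand): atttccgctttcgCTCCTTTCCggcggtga
Rps27l (chr9:66946071-66946100, plus strand): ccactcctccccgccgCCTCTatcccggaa
Rpl22 (chr4:152324421-152324450, plus strand): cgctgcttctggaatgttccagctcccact
Rpl22l1 (chr3:28805493-28805522, plus strand): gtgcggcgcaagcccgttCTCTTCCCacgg
Rpl3l (chr17:24727811-24727840, plus strand): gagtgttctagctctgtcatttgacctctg
Counted from such a C, the stretch of *Rpl27a* is 20 bases long and passes the end of its window, that of *Rpl15* is 17 and that of *Rpl35* is 16. No stretch of this kind lies near the start of *Rpl22* or *Rpl3l* shown here. The start is the annotated one and was not measured in these libraries, and a match describes the letters of the window alone.

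**Figure D1:**
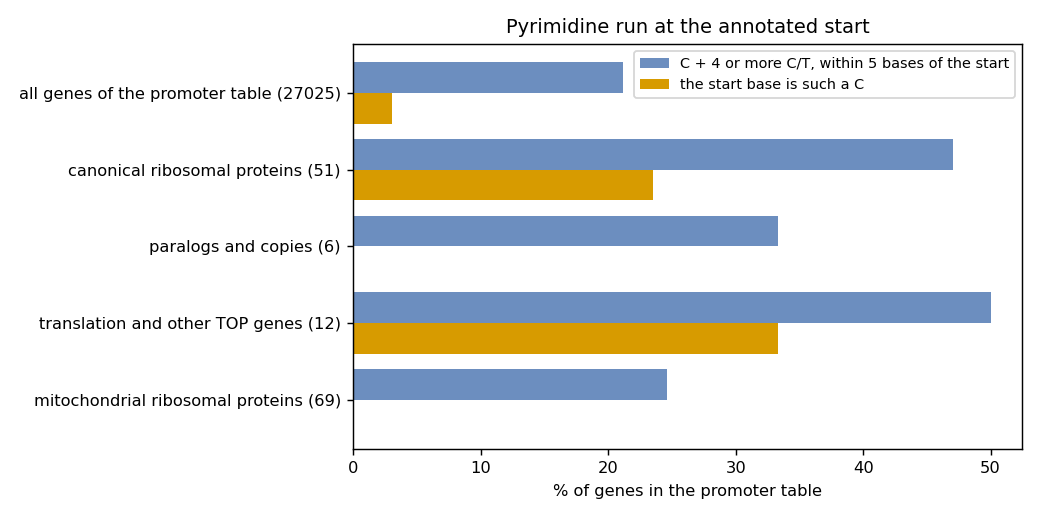
Share of genes (%, horizontal axis) with a C followed by at least 4 C or T within 5 bases of the annotated start (blue) or with such a C as the start base itself (orange), for all genes of the RefSeq promoter table and for 4 gene lists, with the number of genes in parentheses. The blue bar of the canonical ribosomal proteins reaches 47.1% and that of all genes 21.2%.

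Before the values, the libraries have to be described. The files hold no counts, and the ratio of coverage to FPKM implies 13565333 to 22584000 aligned read pairs per library, so that a 1 kb transcript covered by 3 pairs has 0.133 to 0.221 FPKM. *Hbb-bt*, an adult beta-globin of red cells, was at 7.05 FPKM in bone 1, 3.58 in bone 2 and 34838 in bone 3, and at 3.43 in osteoblasts 1, 34268 in osteoblasts 2 and 48650 in osteoblasts 3. It was therefore above 1000 FPKM in 3 libraries, 1 labelled bone and 2 labelled osteoblasts. All 5 erythroid, 6 neutrophil and 4 skeletal muscle markers with a named feature were at 1 FPKM or above in each of those 3 libraries, and the summed muscle markers stood at 232 to 1068 FPKM there against 0.0324 to 1.09 in the other 3. Some markers of the labelled cells, though not all, divided the libraries in the same way. All 5 osteoblast markers with a named feature were above 1 FPKM in every library, but *Ibsp*, a bone matrix protein of osteoblasts, was at 986 to 1278 FPKM in bone 1, bone 2 and osteoblasts 1 and at 43.1 to 91.3 FPKM in the other 3. Of the 3 osteocyte markers with a named feature, 2 were at 1 FPKM or above in bone 1, bone 2 and osteoblasts 1, and all 3 in the others. *Sost*, made by osteocytes of mature bone, was at 0.0661 to 0.198 FPKM in the first 3 libraries and 15.8 to 22.7 FPKM in the others. *Dmp1* went the other way, at 50.0 to 127 and 22.5 to 24.2 FPKM, and *Phex* was at 4.61 to 8.19 FPKM with no such split. Judged by *Sost*, though not by *Dmp1* or *Phex*, bone 1 and bone 2 go against their label with *Sost* near 0, and osteoblasts 2 and osteoblasts 3 by carrying it. Osteoblasts 2 and osteoblasts 3 also carry the markers of blood and muscle, as does bone 3. Every library is named here by its deposited label and none was moved. In bone 2 and osteoblasts 1, unnamed features held 71.5% and 65.0% of the summed FPKM, against 27.4% to 30.7% in the other 4.

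The summed FPKM of the 78 genes was 9293 in bone 1, 4422 in bone 2 and 13539 in bone 3. It was 6159 in osteoblasts 1, 13986 in osteoblasts 2 and 12908 in osteoblasts 3. The 3 highest sums were those of the 3 libraries with *Hbb-bt* above 1000 FPKM, the ranges of the labels overlapped, and the highest sum was 3.16 times the lowest. The median gene followed the same order of high and low libraries, with 77.0, 34.2 and 92.6 FPKM in bone 1 to 3 and 50.1, 97.0 and 101 FPKM in osteoblasts 1 to 3. In bulk RNA, fewer cells of a type and less RNA per cell cannot be told apart.

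As a share of the summed FPKM of named genes, the libraries were much closer. The share was 1.56% in bone 1, 1.24% in bone 2, 1.55% in bone 3, 1.58% in osteoblasts 1, 1.62% in osteoblasts 2 and 1.57% in osteoblasts 3. Only bone 2 lay apart, and the other 5 libraries ranged from 1.55% to 1.62% whether or not *Hbb-bt* was above 1000 FPKM. With all features in the denominator the share was 0.354% in bone 2 and 0.553% in osteoblasts 1, against 1.08% to 1.15% in the other 4. The order of the libraries thus depends on what the values are scaled to. By either measure the genes were among the most abundant of each library, the median member lying at the 93.4th to 96.6th percentile of the named genes with at least 1 FPKM.

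**Figure D2:**
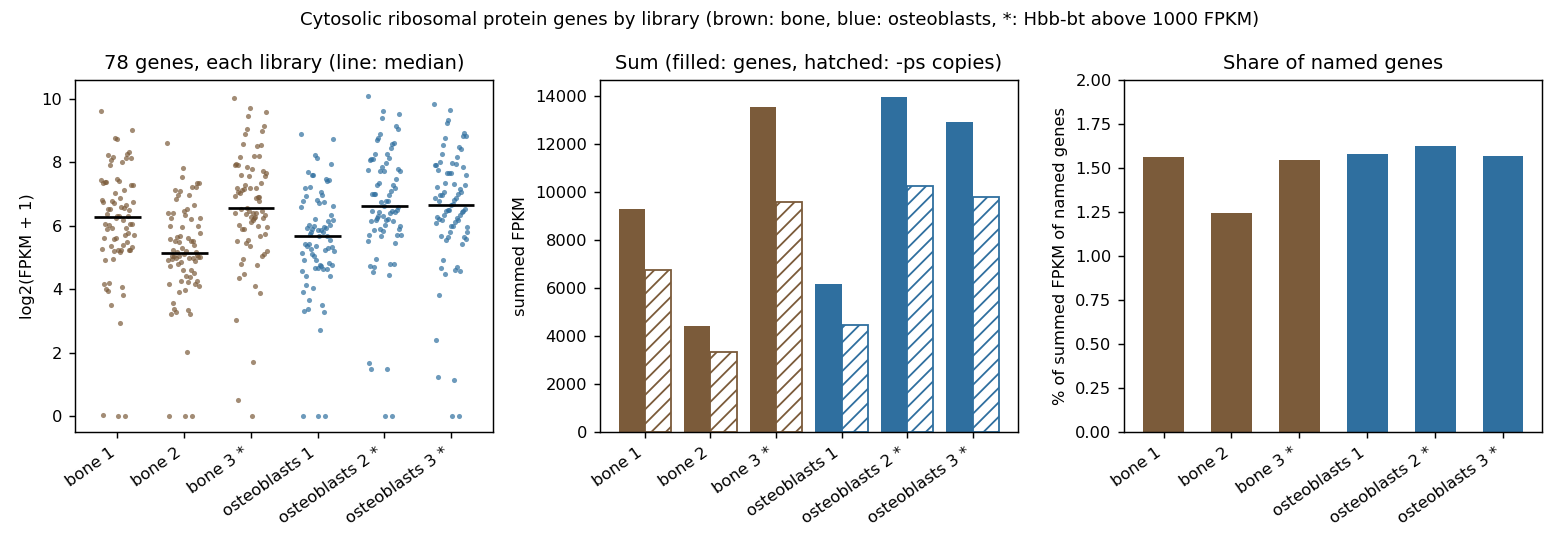
Left, log2(FPKM + 1) of each of the 78 genes in each library, with a line at the median. Middle, summed FPKM of the 78 genes (filled bars) and of the 266 pseudogenes named -ps (hatched bars). Right, the genes' share of the summed FPKM of named genes (%). Brown is bone, blue is osteoblasts, and a star marks *Hbb-bt* above 1000 FPKM. The sums range from 4422 to 13986 and the shares from 1.24% to 1.62%.

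The proportion between the subunits varied little. The summed FPKM of large-subunit names was 1.27 to 1.36 times that of small-subunit names, with the lowest ratio in osteoblasts 2 and the highest in osteoblasts 1. Per gene, the median of the mean FPKM was 80.9 for the 39 canonical large-subunit genes and 104 for the 29 of the small subunit. All 68 canonical genes were above 0 in each library, and their means ran from 16.0 FPKM (*Rpl36a*) to 783 FPKM (*Rplp1*). The 10 genes of the highest mean made up 43.1% of the members' summed mean.

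The stalk is the flexible arm of the large subunit that recruits the elongation factors. Its gene *Rplp1* had the highest mean, with 784, 387 and 1044 FPKM in bone 1 to 3 and 478, 1096 and 910 FPKM in osteoblasts 1 to 3. *Rplp2*, the other acidic stalk protein, was at 138, 73.4 and 364 FPKM in bone and 106, 349 and 289 FPKM in osteoblasts. *Rplp0*, which anchors them, was at 513, 161 and 774 FPKM in bone and 423, 740 and 449 FPKM in osteoblasts. Bone 3 and osteoblasts 2 were the 2 highest libraries for all 3 genes, and bone 2 the lowest. Together they held 12.8% (osteoblasts 3) to 16.3% (osteoblasts 1) of the members' FPKM.

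Among the other genes of high level, *Rpl32* of the large subunit ranged from 223 (bone 2) to 841 FPKM (bone 3). *Rps15*, a small-subunit protein near the decoding site, ranged from 185 (bone 2) to 703 FPKM (bone 3). *Rpl13a*, which also takes part in translational silencing after interferon-gamma, ranged from 164 (bone 2) to 571 FPKM (bone 3). The small-subunit genes *Rps9* and *Rpsa* (known too as the laminin receptor precursor) had means of 361 and 320 FPKM. Each of these 5 genes was lowest in bone 2, and the median ratio of the highest to the lowest library over the 68 canonical genes was 3.47. Over 11464 named genes above 0 in every library that median was 3.37, so a ratio of this size was usual in these tables. Scaled to the sum of named genes, the ratio fell to 1.58 for the canonical genes and to 3.01 for all genes.

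*Rpl5* and *Rpl11*, which bind 5S rRNA and, when free, the p53 regulator *Mdm2*, were at lower levels. *Rpl5* was at 60.6, 30.7 and 50.3 FPKM in bone and 49.7, 69.5 and 79.6 FPKM in osteoblasts. *Rpl11* was at 35.6, 18.1 and 46.0 FPKM in bone and 24.3, 50.0 and 49.2 FPKM in osteoblasts. The labels overlapped for both genes. The deposited feature of *Rpl11* is 6.23 times as long as the RefSeq gene, and the features of 7 further members (*Rpl12*, *Rpl13a*, *Rpl23a*, *Rpl24*, *Rpl3*, *Rps24* and *Rps28*) were also over 1.5 times as long, so their FPKM may include other transcripts.

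Osteoblasts were then compared with bone by their labels. Of the 77 genes that passed a mean of 1 FPKM, 0 were higher and 0 lower in osteoblasts at an adjusted p under 0.05 (limma on log2(FPKM + 1), Benjamini-Hochberg adjustment), where 0% of all 12112 genes were called. At an unadjusted p under 0.05 there were 0 of the 77 and 17 of all genes, and the smallest adjusted p of a member was 0.999. The median log2 fold change was 0.36 over the members and 0.12 over all genes, and 70 of the 77 (90.9%) lay above 0 against 62.6% of all genes. The median SD within a label was 0.77 on the log2 scale for a member and 0.59 for a gene. Without bone 2 the members' median was -0.05 and that of all genes -0.13. Scaled to the sum of named genes, the medians were 0.18 and -0.04, a shift of all genes that leaves the members above them.

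The largest log2 fold changes were those of *Rpl29* (1.10, SE 0.61), *Rps25* (0.66, SE 0.49) and *Rps16* (0.65, SE 0.78). *Rpl29*, also known as a heparin-binding protein, was at 10.4, 26.5 and 21.2 FPKM in bone and 37.6, 78.4 and 21.5 FPKM in osteoblasts. Osteoblasts 3 lay below bone 2, so the labels overlapped. The lowest log2 fold changes were those of *Rps12l1* (-2.26, SE 1.56), *Rpl14* (-1.23, SE 0.86) and *Rpl39l* (-0.62, SE 0.93). None of these 6 passed the test.

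**Figure D3:**
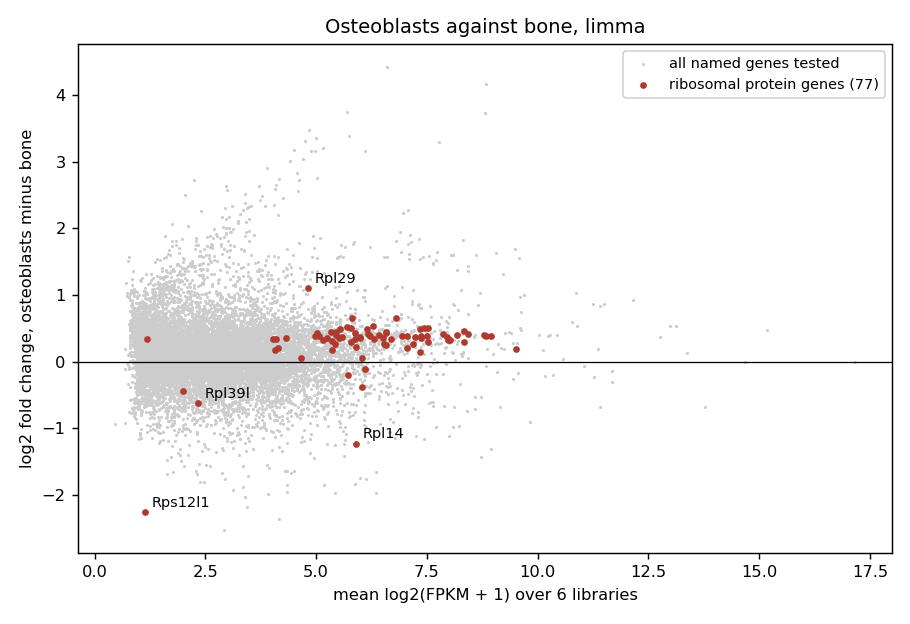
Log2 fold change of osteoblasts minus bone (vertical axis) against the mean log2(FPKM + 1) over 6 libraries (horizontal axis) for the 12112 named genes tested (grey) and the 77 ribosomal protein genes tested (red). Most red points lie just above 0, with a median of 0.36, and *Rpl29*, *Rpl14*, *Rpl39l* and *Rps12l1* stand away from them.

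In the deposited FPKM, most members shared their highest libraries in a way that did not follow the labels. For 54 of the 77 genes (70.1%) the 3 highest libraries were bone 3, osteoblasts 2 and osteoblasts 3, the most frequent set, which 38.4% of all genes also had. They are the 3 libraries with *Hbb-bt* above 1000 FPKM and with the markers of blood and muscle, and the part of those cells in the members' levels was not tested. Scaled to the sum of named genes, 23 of the 77 (29.9%) had that set, against 19.9% of all genes, and the members fell into 17 sets. Under that scaling, 6 members and 50.1% of all genes had the opposite set, bone 1, bone 2 and osteoblasts 1. By kind, 53 of the 68 canonical genes (77.9%) and 1 of the 9 tested paralogs (11.1%) had bone 3, osteoblasts 2 and osteoblasts 3 highest in the deposited FPKM. Of the 17 tested members with mutations in Diamond-Blackfan anemia, all canonical, 14 (82.4%) had that set, against 77.9% of canonical genes and 38.4% of all genes. Scaled to the sum of named genes, 9 of the 17 (52.9%) had it, against 32.4% of canonical genes and 19.9% of all genes. Among the 17 was *Rps19*, the gene most often mutated, at 116, 90.9 and 293 FPKM in bone and 134, 309 and 158 FPKM in osteoblasts.

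The relative levels of the members were much the same in every library. Over the 68 canonical genes, Spearman's rho between 2 libraries was 0.889 to 0.966 over the 15 pairs of libraries, with a median of 0.930, as a description across genes of tables that share their annotation. Each gene's share in the summed FPKM of the members removes the scaling of a library. The SD of its log2 over the 6 libraries had a median of 0.197 over the canonical genes and was under 0.25 for 45 of the 68. The 5 steadiest were the large-subunit genes *Rpl35*, *Rpl24*, *Rpl38* and *Rpl37* and the small-subunit gene *Rps18*, with SDs of 0.067 to 0.080. *Rpl35*, for example, was at 54.0, 28.7 and 87.0 FPKM in bone and 38.1, 85.5 and 84.9 FPKM in osteoblasts, following the members' sum closely.

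**Figure D4:**
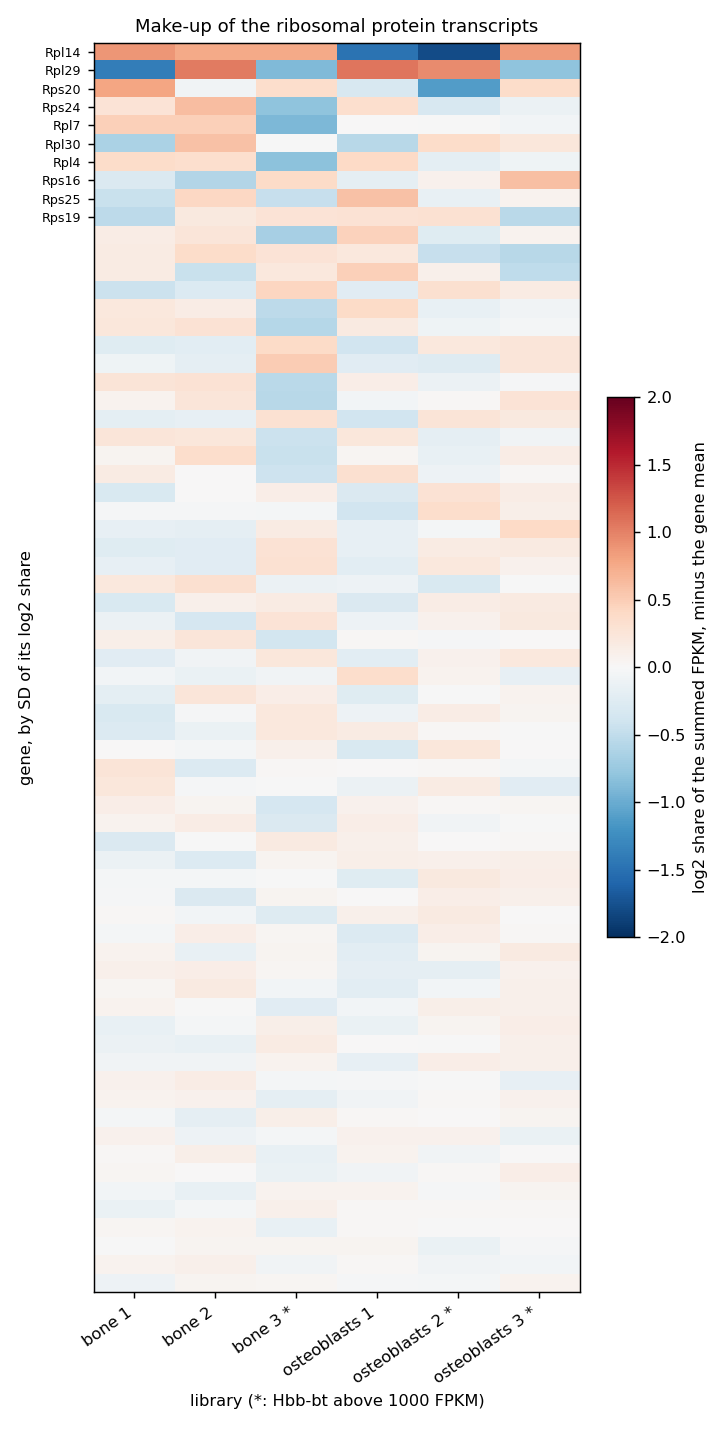
Log2 share of each of the 68 canonical genes in the members' summed FPKM, minus the gene's mean over the 6 libraries (red above, blue below), with the genes ordered by their SD. The 10 least steady genes are labelled. Most rows are pale in every library, and the top rows, *Rpl14* and *Rpl29*, are not.

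The least steady shares were those of *Rpl39l* (SD 2.56), *Rps4l* (1.45), *Rpl14* (1.27), *Rpl29* (1.14) and *Rpl22l1* (0.92). *Rpl14*, a canonical large-subunit gene, was at 107, 47.2 and 145 FPKM in bone, and at 13.9, 25.5 and 147 FPKM in osteoblasts. It was low in osteoblasts 1 and 2, which differ in *Hbb-bt*, and at the level of bone 3 in osteoblasts 3. The deposited coverage of the same feature, divided by the library's depth, was 8.14 and 16.2 in osteoblasts 1 and 2 and 33.9 to 93.2 in the other 4. Of its 75-base windows, 59.6% are also found in the pseudogene *Rpl14-ps1*, which was at 182, 95.6 and 311 FPKM in bone and 122, 306 and 296 FPKM in osteoblasts. The pseudogene did not drop with the gene, and *Rpl14* made up 7.68% to 10.2% of the sum of both in osteoblasts 1 and 2 against 31.8% to 37.1% elsewhere.

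For *Rpl29* the libraries were ordered differently, with a share of the members' FPKM of 0.560% to 0.610% in bone 2, osteoblasts 1 and osteoblasts 2 and of 0.112% to 0.167% in the other 3. Both kinds of library by *Hbb-bt* occur on each side of this gap. Of its windows, 55.1% are shared with 23 copies, whose summed mean was 93.7 FPKM against 32.6 FPKM for the gene.

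Such copies bear on most of the values. Of the 72 members with a transcript in GENCODE vM1 (NCBIM37), 63 shared at least 1 exact 75-base window, the length of a read, with a pseudogene copy, and 25 shared at least 50% of their windows. The copies with a named feature summed to 79.8% to 85.1% of the members' FPKM in each library. For 27 members the copies, added together, had a higher mean over the libraries than the gene. For *Rps29*, 2 copies with a feature summed to a mean of 880 FPKM, against 66.4 FPKM for the gene. For *Rps2*, 23 copies summed to 603 FPKM against 39.9 FPKM. For *Rpl9*, 7 copies summed to 401 FPKM against 55.5 FPKM, and for *Rps12*, 3 copies to 242 FPKM against 34.4 FPKM. These are sums over the copies and not the level of a single copy. Reads that fit several places can be split between a gene and its copies, so the level of a single member is uncertain, and genes with low FPKM need not have few transcripts. The 266 pseudogenes named -ps had the same order of libraries in part, with sums of 71.0% to 75.8% of the members' sums. Of the 138 tested, 114 (82.6%) had the same 3 highest libraries, against 38.4% of all genes. Scaled to the sum of named genes, 47 (34.1%) had them, against 19.9% of all genes. None of the 138 was called, and their median log2 fold change was 0.34. The most abundant, *Rps2-ps13*, was at 300.5, 144 and 423 FPKM in bone and 212, 431 and 378 FPKM in osteoblasts. *Rps12-ps3* and *Rpl31-ps8*, the next by mean, had means of 240 and 230 FPKM.

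*Rps12l1*, a retrogene copy that RefSeq lists as a pseudogene, was at 109 FPKM in bone 3 and listed at 0 in the other 5 libraries. It is a feature of 399 bases on chromosome 7 from 56014016 to 56014414 (GRCm38, plus strand). It lies inside *Gm44510* on the minus strand, which was at 17.8 FPKM in bone 3 and at 9.81 to 30.1 FPKM in the others. The kit does not mark strand, so reads of the 2 cannot be told apart, and the value rests on 1 library. *Rps3a2* and *Rps3a3*, copies of *Rps3a1*, had means of 82.6 and 34.7 FPKM against 156 FPKM for *Rps3a1*, with each library above 0, and these near-identical copies are uncertain in the same way.

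Paralogs were then set beside their partners, among them *Rps4l*, which RefSeq lists as a pseudogene. *Rpl3l* replaces *Rpl3* in the ribosomes of striated muscle. It was at 0.028 FPKM in bone 1, below the value of 3 read pairs, listed at 0 in bone 2 and at 7.17 FPKM in bone 3. In osteoblasts 1 to 3 it was listed at 0, then at 2.18 and 4.30 FPKM. *Rpl3* was at 108, 44.1 and 155 FPKM in bone and 59.0, 160 and 161 FPKM in osteoblasts. *Rpl3l* was thus measurable in the 3 libraries with *Hbb-bt* above 1000 FPKM alone, where it made up 1.34% to 4.42% of the pair. *Acta1*, the skeletal muscle actin, followed the same order with 558 FPKM in bone 3, 246 in osteoblasts 3 and 109 in osteoblasts 2, against 0.0324 to 1.04 FPKM in the other 3, and the part of muscle RNA in the level of *Rpl3l* was not tested.

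*Rpl39l*, best known from the testis, had the opposite order. It was at 17.0 and 8.34 FPKM in bone 1 and 2 and 0.431 FPKM in bone 3. In osteoblasts it was at 8.87, 1.82 and 1.38 FPKM. The 3 libraries with little *Hbb-bt* were all above the other 3, and the highest library was 39.4 times the lowest. Of all genes, 16.9% had bone 1, bone 2 and osteoblasts 1 as their 3 highest libraries, and 50.1% had them when scaled to the sum of named genes. The partner of *Rpl39l*, *Rpl39*, has no feature of its name, so the pair was not tested.

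*Rpl22l1* can take the place of *Rpl22*, which is known to repress it. *Rpl22l1* was at 43.8, 21.9 and 13.7 FPKM in bone and 24.0, 26.8 and 23.0 FPKM in osteoblasts, and *Rpl22* at 48.0, 23.4 and 40.6 FPKM and 29.2, 56.0 and 55.0 FPKM. The paralog was 47.7%, 48.3% and 45.2% of the pair in bone 1, bone 2 and osteoblasts 1, and 25.3% to 32.3% in the libraries with *Hbb-bt* above 1000 FPKM. By label the log2 ratio was -0.57 ± 0.80 in bone and -0.84 ± 0.50 in osteoblasts (SD, n = 3, exact permutation p = 0.80).

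*Rps27l*, a target of p53, showed the same split against *Rps27*. It was at 107, 53.7 and 61.9 FPKM in bone and 71.2, 63.4 and 61.9 FPKM in osteoblasts, where *Rps27* was at 40.7, 19.8 and 84.2 FPKM and 23.8, 83.9 and 74.8 FPKM. *Rps27l* was therefore above *Rps27* in bone 1, bone 2 and osteoblasts 1, with 72.4% to 74.9% of the pair, and below it in the other 3, with 42.4% to 45.3%. The level of *Rps27l* itself did not divide the libraries in this way. *Rps27* did, being highest in bone 3, osteoblasts 2 and osteoblasts 3, as were 77.9% of canonical genes and 38.4% of all genes. *Rps27rt*, a protein-coding retrogene of *Rps27* outside the name rule, was above both in every library, at 201, 93.3 and 420 FPKM in bone and 124, 400.1 and 388 FPKM in osteoblasts. How reads were split between it and *Rps27* was not tested, so the level of *Rps27* is uncertain. By label the log2 ratio of *Rps27l* to *Rps27* was 0.77 ± 1.05 in bone and 0.29 ± 1.08 in osteoblasts (SD, n = 3, exact permutation p = 1.0).

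*Rps4l*, listed by RefSeq as a pseudogene of the *Rps4x* type, was at 6.63, 3.06 and 2.29 FPKM in bone and 5.62, 1.78 and 1.21 FPKM in osteoblasts. That was 2.04% to 3.10% of the pair with *Rps4x* in the 3 libraries with little *Hbb-bt* and 0.335% to 0.777% in the other 3. *Rpl7l1*, a nucleolar relative of *Rpl7*, showed no such split, with 5.01% to 11.8% of its pair. *Rpl36al*, which lies outside the name rule, held 82.1% to 84.2% of its pair with *Rpl36a* in bone 1, bone 2 and osteoblasts 1 and 78.8% to 80.2% in the other 3, a narrow gap in the same direction. *Rpl10l*, the testis retrogene of the X-linked *Rpl10*, was the member with a mean under 1 FPKM and was listed at 0 in every library, while *Rpl10* was at 41.2 to 161 FPKM.

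Of the 8 pairs, 6 could be tested by label, and none differed (two-sided exact permutation test, adjusted p = 1.0 for each). The unadjusted p ranged from 0.40 for *Rps4l*, with a difference in log2 ratio of -0.77, to 1.0, and 3 libraries against 3 cannot give less than 0.10. These p-values therefore do not show that the pairs are alike in the 2 labels.

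**Figure D5:**
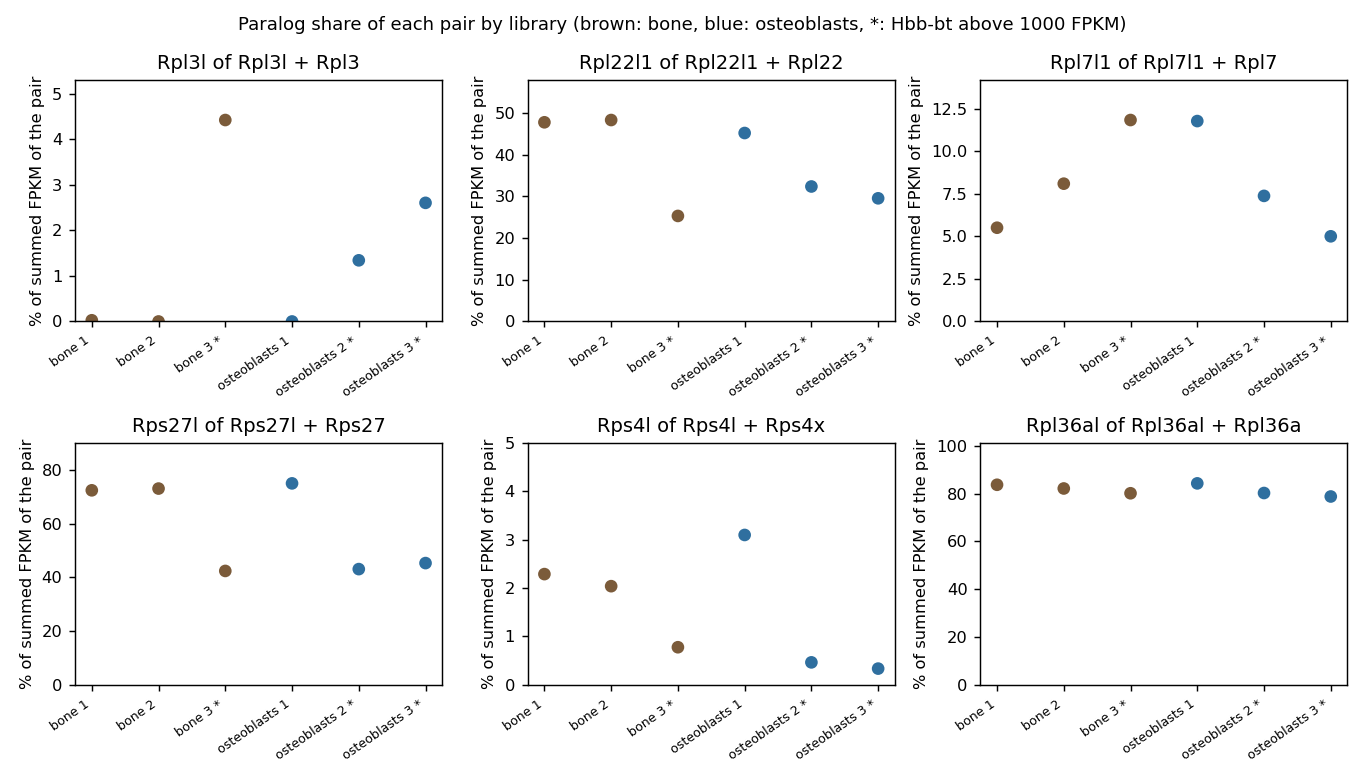
Share of the paralog in the summed FPKM of its pair (%, vertical axis, from 0) in each library for the 6 pairs tested. Brown points are bone, blue points are osteoblasts, and a star marks *Hbb-bt* above 1000 FPKM. *Rpl22l1*, *Rps27l*, *Rps4l* and, by a narrow gap, *Rpl36al* (78.8% to 80.2% against 82.1% to 84.2%) are lower in the 3 starred libraries than in the other 3, and *Rpl3l* is higher there.

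Genes of related roles were counted in the same limma fit, where none was called. The 69 mitochondrial ribosomal protein genes had a median log2 fold change of 0.21, the 17 translation and other TOP genes 0.22, and the 19 ribosome biogenesis genes with a named feature 0.20, against 0.12 for all genes. The most frequent set of 3 highest libraries among the cytosolic members was that of 27 of 69 mitochondrial genes (39.1%) and 8 of 17 TOP genes (47.1%). It was that of 5 of 19 biogenesis genes (26.3%) and of 38.4% of all genes. The elongation factor gene *Eef1a1*, of the highest level among the TOP genes, was at 2351, 1102 and 1052 FPKM in bone and 1207, 1116 and 1324 FPKM in osteoblasts, highest in bone 1. *Eef2*, which moves the ribosome along the mRNA, and *Rack1*, a scaffold bound to the small subunit, had means of 503 and 428 FPKM. *Mrps21*, *Mrpl28* and *Mrpl52* led the mitochondrial genes with means of 37.5, 35.1 and 30.2 FPKM. The nucleolar genes *Ubtf* and *Nop56* led those of biogenesis with means of 26.7 and 23.5 FPKM, followed by *Pes1*.

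The introns of ribosomal protein genes host small nucleolar RNAs, which guide the modification of rRNA. Of 75 snoRNA features in the tables, 10 lie inside 7 members on their strand. *Snora21*, inside *Rpl23*, had the highest mean, at 13.0, 9.81 and 40.9 FPKM in bone and 20.9, 35.3 and 42.8 FPKM in osteoblasts, and *Snord42a* and *Snord4a* of *Rpl23a* were listed at 0 in every library. Libraries of this kind hold RNAs this short only in small part.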

How the data were processed

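The 6 RNA-seq libraries carry the labels bone (3) and osteoblasts (3). By the submitters' processing notes and the study's methods, 75 bp paired reads from an unstranded TruSeq RNA kit were aligned to GRCm38 with HISAT2 2.0.5, handled with SAMtools 1.7 and assembled and quantified with StringTie 1.3.3. For each feature of each library the authors deposited a coverage (mean reads per base), FPKM (scaled to all aligned reads) and TPM (the same rescaled within the library). Counts were not analysed here, so no interval for a single value can be given. Features that share a name were summed.

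Levels are FPKM. Depth was taken as the commonest value of coverage divided by FPKM. Osteoblasts were compared with bone by limma 3.58.1 in R 4.3.3 (lmFit, eBayes with a trend) on log2(FPKM + 1) over the 12112 genes with a mean of at least 1 FPKM, with Benjamini-Hochberg adjustment at 0.05. A fold change on this scale understates that of low genes. Paralog ratios used the same pseudocount and two-sided exact permutation tests. limma was tried on simulated data with independent noise of SD 0.3, and it recovered 200 of 200 genes given a log2 change of 2, with 9 other calls. That SD is below the median of 0.59 within a label here, so the trial does not show what could be called in these libraries. Shared sequence was found with exact 75-base windows in GENCODE vM1 (NCBIM37), and promoter windows, names and gene types came from RefSeq (GRCm38.p6). No coordinates were converted. Tables were handled in Python 3.11.15 (scipy 1.17.1, numpy 2.4.6, pandas 2.3.3) and drawn with matplotlib 3.10.9.

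The members, gene lists and comparisons were chosen with earlier results of these data known. Named genes are the 10 of the highest mean, the 5 most and 5 least steady in share, members with a mean under 1 FPKM, both genes of each pair, the stalk and 5S-binding genes, the 3 largest and 3 lowest log2 fold changes, members past the threshold with or without the replicate block, and the 3 most abundant genes of each related list, apart from some that are not reported here. Genes named beyond these (*Rps19*, *Rps29*, *Rpl9*, *Rps12* and *Rps2* among them) were chosen after their values were seen. The alternatives were a pseudocount of 0.1, other filters on the mean, TPM, quantile normalization, scaling to the sum of named genes or to the 75th percentile, no trend in limma, a replicate block, other sets of members or denominators, and leaving out each library. Depth-scaled coverage, members summed with their copies, and the block with scaling or for pairs were added after seeing the data.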

Additional observations from a re-analysis of the deposited data

Results flagged for a closer look

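The canonical ribosomal protein genes that have no feature of their name were looked for by position (RefSeq, GRCm38.p6), and in each case 1 feature covered most or all of the gene, unnamed apart from that over *Rpl19*, which carries the name *Gm11629*. These features stand outside the 78 genes, and each was well above the value of 3 read pairs in every library. The lowest of the 6 libraries was at 147.6 FPKM for the feature over *Rpl8*, 23.3 for *Rpl17*, 125.6 for *Rpl19*, 108.8 for *Rpl26*, 13.6 for *Rpl28*, 46.2 for *Rpl37a*, 78.9 for *Rpl39*, 295.9 for *Rps3* and 103.3 for *Rps14*. Their means ran from 40.4 FPKM (*Rpl17*) to 593 FPKM (*Rps3*). The features over *Rps3* and *Rps14* span 37219 and 32086 bases, far more than the genes. In 7 of the 9 the 3 highest libraries were bone 3, osteoblasts 2 and osteoblasts 3, a set that 38.4% of all named genes tested had. The feature over *Rpl39* was at 122, 78.9 and 170 FPKM in bone and 81.0, 174 and 160 FPKM in osteoblasts, where the named paralog *Rpl39l* had the opposite order.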

How the results depend on the processing

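No member was called by limma in any setting but one: with the replicate number as a block, 1 was called (*Rps12l1*, listed at 0 in 5 of 6 libraries, limma adjusted p = 0.0101), and 49 of all genes (46 higher, 3 lower). With the block and scaling to the sum of named genes no gene was called. No source ties a number to 1 mouse, so the numbers were not taken as pairs. The deviations from the label means correlated with 0.84, -0.75 and 0.83 for numbers 1, 2 and 3. Only the libraries of number 2 differ in whether *Hbb-bt* was above 1000 FPKM, so these correlations cannot tell whether a number is 1 mouse. For the paralog ratios the block was an exact sign flip over 3 numbers, which cannot reach a p under 0.05, so no call was possible (differences from -0.77 to -0.01). Leaving out each library, all genes called ranged from 0 to 360, the higher counts being 3 without bone 3 and 360 without osteoblasts 1, and members stayed at 0. The members' median log2 fold change ranged from -0.05 (without bone 2) to 0.74 (without osteoblasts 1) and was 0.16 under quantile normalization. The set of the 3 highest libraries held 32 of 77 members with TPM (25.0% of all genes) and 23 scaled to the sum of named genes (19.9%). It held 61 scaled to the 75th percentile (44.6% of all genes) and 54 with depth-scaled coverage (37.8%). Without the named non-coding RNAs Rn7s1, Rn7s2, Rn7sk, Rmrp and Rpph1, the share of named FPKM was 2.40%, 1.78% and 2.44% in bone 1 to 3 and 2.19%, 2.53% and 2.30% in osteoblasts 1 to 3. With all features in the denominator it was 1.08%, 0.354% and 1.11%, and 0.553%, 1.15% and 1.14%. The difference in log2 ratio of *Rpl3l* to *Rpl3* changed sign with a pseudocount of 0.1 (0.80, against -0.01). Leaving out a library moved it from -0.63 to 0.61, that of *Rpl7l1* from -0.46 to 0.20 and that of *Rpl36al* from -0.20 to 0.035. The others kept their sign, *Rpl22l1* from -0.73 to -0.03, *Rps27l* from -1.11 to -0.14 and *Rps4l* from -1.60 to -0.29. The cause of these shifts was not tested. Where a fit left out a library, its label rested on 2.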
